A study of Homo sapiens with 15 samples.

Results

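The 10 genes described here are transcriptional readouts of RAS-ERK signalling, taken by name from what is known of the pathway. They were chosen with earlier results of these data known. The set holds the dual-specificity phosphatases *DUSP4*, *DUSP5* and *DUSP6*, the Sprouty genes *SPRY1*, *SPRY2* and *SPRY4*, the Sprouty-related genes *SPRED1* and *SPRED2*, and the transcription factors *ETV5* and *EGR1*. They are 10 of the 60649 genes in the count table, and all 10 were among the 23711 genes with enough counts to be tested. RAS-ERK signalling runs from receptors through RAS, RAF and MEK to the kinases ERK1 and ERK2, and active ERK switches on genes whose products curb the same pathway. DUSP proteins remove the activating phosphates from ERK, Sprouty proteins act between receptors and RAF, and SPRED proteins bring neurofibromin to RAS, while EGR1 and ETV5 carry the signal into transcription. In chronic myeloid leukemia the BCR-ABL kinase feeds into this pathway.

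The cells were K562, an established BCR-ABL positive human cell line of chronic myeloid leukemia. Treated cells received 0.15, 0.25, 0.5 or 1 µM martinostat for 24 h, and control cells none. Martinostat is a small-molecule inhibitor of histone deacetylases (HDACs). Each group had 3 libraries that the labels call biological replicates, 15 in all, made from poly(A) RNA. All groups were the same unmodified cell line and differed in the labelled dose. The titles of the control libraries say untreated and name no vehicle.

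Library totals ran from 23755510 to 32805574 counts, which put 1 count at 0.025 to 0.0442 CPM (counts scaled to a common library size). CPM here carry TMM scaling, edgeR's trimmed-mean factors for library composition, which ran from 0.784 to 1.284. The third replicates at 0.25 and 0.5 µM stood apart from the rest on principal component 3, which held 5.85% of the variance, at 48.69 and 52.11 against at most 9.52 in the other 13 libraries. Without these libraries the same numbers of feedback genes were called at every dose against untreated cells: 4 rose and 2 fell at 0.15 µM, 4 and 3 at 0.25 µM, and 4 and 4 at 0.5 and at 1 µM. Of 8 erythroid markers, *HBE1* was near 0 in untreated K562 cells at 0.17 CPM and the others lay between 116 and 1228 CPM. Of the exon bases of *HBE1* 90.01%, and of *HBG2* 55.65%, are shared with other genes on the same strand. How reads in shared bases were counted is not given, so the *HBE1* value may not show its expression. Summed, the 8 markers fell from 2331 to 2633 CPM in untreated libraries to 753 to 903 CPM at 1 µM. *GATA1* went from 328 to 18.9 CPM and *HBE1* to 0.49 CPM, and 1 of the 8 was called higher and 6 lower there. The sum of 9 markers of other cell types was 161 to 179 CPM in untreated libraries and 331 to 522 CPM at 1 µM, of which the collagen gene *COL1A1* made 4.37 and 398 CPM, and the B cell marker *MS4A1* was at 0 in untreated cells. The other collagen gene of the list, *COL1A2*, went from 18.9 to 9.70 CPM at 1 µM, and the epithelial marker *EPCAM* from 141 to 20.5 CPM. Of 8 tested markers of this list 4 were called higher and 3 lower at 1 µM. The part of these marker shifts in the results below was not tested, and in bulk RNA fewer cells of a type and less RNA per cell cannot be told apart.

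The promoters of these genes are shown for EGR1, DUSP6 and SPRY2, a gene that was higher, a gene that was barely detected and the gene that fell most. The sequences are the 250 bases before the RefSeq start site that matches the annotated gene start, on GRCh38.p14. They were taken from a table with windows for 7 of the 10 genes (11 windows). Capitals mark the CArG box bound by SRF, the CIC octamer (TGAATGAA, TGAATGGA, TCAATGAA or TCAATGGA), the ETS core (CCGGAA) and the cAMP response element core (TGACG), each searched on both strands and not overlapping one another here. The full cAMP response element (TGACGTCA), which contains the core, and the AP-1 site (TGACTCA) were searched too and were absent from these 3 windows.
EGR1 (chr5:138465229-138465478, plus strand): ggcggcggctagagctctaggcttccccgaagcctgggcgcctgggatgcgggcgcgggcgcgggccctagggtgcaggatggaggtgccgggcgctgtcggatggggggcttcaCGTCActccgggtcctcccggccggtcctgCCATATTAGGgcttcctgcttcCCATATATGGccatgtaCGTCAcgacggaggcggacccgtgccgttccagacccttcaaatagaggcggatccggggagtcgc
DUSP6 (chr12:89352502-89352751, minus strand): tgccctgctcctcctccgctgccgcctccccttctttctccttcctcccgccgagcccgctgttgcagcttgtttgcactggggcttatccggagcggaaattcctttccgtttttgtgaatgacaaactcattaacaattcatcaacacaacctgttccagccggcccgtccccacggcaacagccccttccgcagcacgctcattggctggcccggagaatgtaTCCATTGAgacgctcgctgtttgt
SPRY2 (chr13:80341127-80341376, minus strand): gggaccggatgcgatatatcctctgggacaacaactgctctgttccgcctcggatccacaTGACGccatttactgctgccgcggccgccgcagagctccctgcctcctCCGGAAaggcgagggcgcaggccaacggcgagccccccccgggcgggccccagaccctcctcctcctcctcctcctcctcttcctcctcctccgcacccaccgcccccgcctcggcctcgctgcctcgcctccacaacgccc

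The EGR1 window held 2 CArG boxes, at bases -105 to -96 and -83 to -74 from the start site, beside 2 response element cores. A CArG box was found in 1.16% of 35116 promoter windows of this length. The DUSP6 window held a CIC octamer at -24 to -17, a motif of 3.18% of windows, and overlaps an exon of the gene ENSG00000274021. The SPRY2 window held an ETS core (14.5% of windows) at -142 to -137 and a response element core (21.2%) at -190 to -186. Other SPRY2 windows, at RefSeq start sites within the gene, held none of the motifs searched. The full response element and the AP-1 site occurred in 1.65% and 4.2% of windows. These matches are letters in a window and were not tested as binding sites.

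To ask which feedback genes respond at which dose, each dose was compared with untreated cells in 1 edgeR quasi-likelihood fit of all 15 libraries. Calls required p-values adjusted by Benjamini-Hochberg across all tested genes to be under 0.05. At 1 µM *DUSP4*, *DUSP5*, *ETV5* and *EGR1* were higher and *SPRY2*, *SPRY4*, *SPRED1* and *SPRED2* lower, while *SPRY1* and *DUSP6* were not called. The same 8 genes were called in the same directions at 0.5 µM. At 0.15 µM *DUSP4*, *DUSP5*, *SPRY1* and *EGR1* were higher and *SPRED1* and *SPRED2* lower, and at 0.25 µM *SPRY2* joined the lower genes. Over all tested genes the shares called higher and called lower were 31.9% and 19.4% at 0.15 µM, 37.4% and 24.8% at 0.25 µM, 39.4% and 27.6% at 0.5 µM, and 38.8% and 27.5% at 1 µM. The 4 higher feedback genes of 10 at 1 µM match the share among all genes, and with 10 genes the 4 lower ones are not shown to differ from it. The test over the 5 groups called 9 of the 10, all but *DUSP6*, against 73.6% of all genes.

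The median log2 fold change of the 10 genes was -0.20, 0.09, -0.40 and -0.65 for the 4 doses in rising order. That of all tested genes was 0.28, 0.32, 0.34 and 0.32 on the TMM scale. A log2 fold change of 0 thus lay below the middle of the tested genes at every dose. With only genes of at least 10 counts in every library kept and scaled, their median was 0.04, 0.05, 0.07 and 0.05. Most of the offset was therefore absent among genes detected in all libraries. With library totals as the only scaling the median of all genes was 0.64, 0.85, 0.72 and 0.67. Under that scaling 4 members rose and 0 fell at 0.15 µM, 6 and 0 at 0.25 µM, and 4 and 4 at 0.5 and 1 µM. With TMM factors taken only on genes at or above 10 CPM the counts were the same as with library totals. Directions at 0.5 and 1 µM therefore held under each scaling for the 8 called genes, and the lower calls at 0.15 and 0.25 µM did not.

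**Figure D1:**
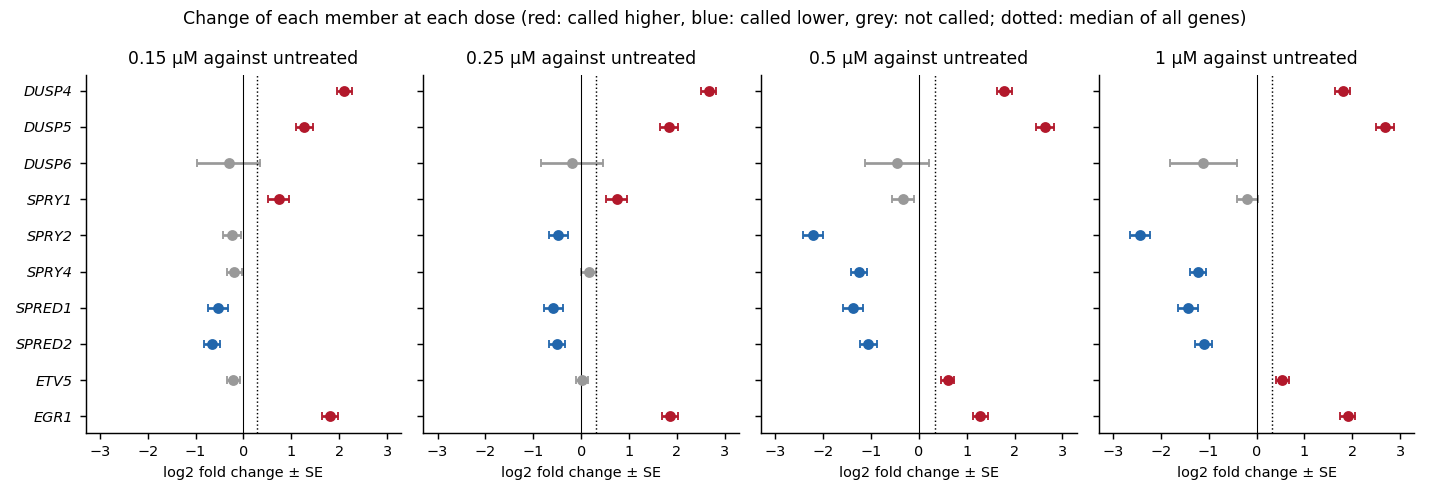
Log2 fold change of each feedback gene (x axis, with its standard error) at each martinostat dose against untreated cells, 3 libraries per group, on the TMM scale. Red points were called higher, blue points lower and grey points not called, and the dotted line is the median of all tested genes; *DUSP5* moves right with dose up to 0.5 µM, and *SPRY2* moves furthest left, to -2.43 at 1 µM. The lower calls at 0.15 and 0.25 µM are lost under library totals.

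*DUSP4* (chr8:29333064-29350684, minus strand) encodes a nuclear phosphatase that acts on ERK and JNK kinases. It stood at 6.09, 7.07 and 6.89 CPM in untreated libraries, at 33.1, 26.1 and 27.5 CPM at 0.15 µM, and at 43.9, 39.3 and 43.8 CPM at 0.25 µM. At 0.5 µM it was at 20.6, 21.0 and 27.6 CPM and at 1 µM at 21.5, 24.0 and 24.4 CPM. Every treated library was above every untreated one, and the highest values were those at 0.25 µM, which overlapped with no other dose. Its mean was 4.32-fold that of untreated cells at 0.15 µM, 6.33-fold at 0.25 µM and 3.48-fold at 1 µM, with log2 fold changes of 2.11 ± 0.16 (SE, adjusted p = 3.13e-09), 2.66 ± 0.16 (1.12e-10) and 1.80 ± 0.16 (7.99e-09).

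*DUSP5* (chr10:110497907-110511533, plus strand) encodes a nuclear phosphatase specific for ERK. Its untreated libraries held 4.58, 3.79 and 5.17 CPM, those at 0.15 µM 9.46, 10.1 and 13.2 CPM and those at 0.25 µM 16.9, 17.9 and 13.8 CPM. It reached 23.3, 28.9 and 31.7 CPM at 0.5 µM and 29.5, 28.1 and 29.7 CPM at 1 µM. The groups rose without overlap from untreated cells to 0.5 µM, and those at 0.5 and 1 µM overlapped. Against untreated cells the means were 2.42-fold at 0.15 µM, 3.59-fold at 0.25 µM, 6.20-fold at 0.5 µM and 6.45-fold at 1 µM, the last with a log2 fold change of 2.69 ± 0.19 (SE, adjusted p = 3.81e-10).

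*DUSP6* (chr12:89347235-89352501, minus strand) encodes the cytoplasmic phosphatase specific for ERK that is a common marker of pathway output. It was barely present in these cells, with 8, 12 and 11 counts in untreated libraries, or 0.327, 0.464 and 0.43 CPM. The treated libraries held 12, 12 and 4 counts at 0.15 µM, 10, 6 and 20 at 0.25 µM, 2, 11 and 12 at 0.5 µM, and 2, 6 and 8 at 1 µM. All 3 libraries at 1 µM (0.071, 0.207 and 0.279 CPM) were below the untreated range, yet the log2 fold change of -1.11 ± 0.69 (SE) had an adjusted p of 0.166. A change was not detectable at this depth at any dose. Of its exon bases, 28.63% lie under ENSG00000274021 on the opposite strand, and the strand setting of the counting is not given in the sources used here.

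**Figure D2:**
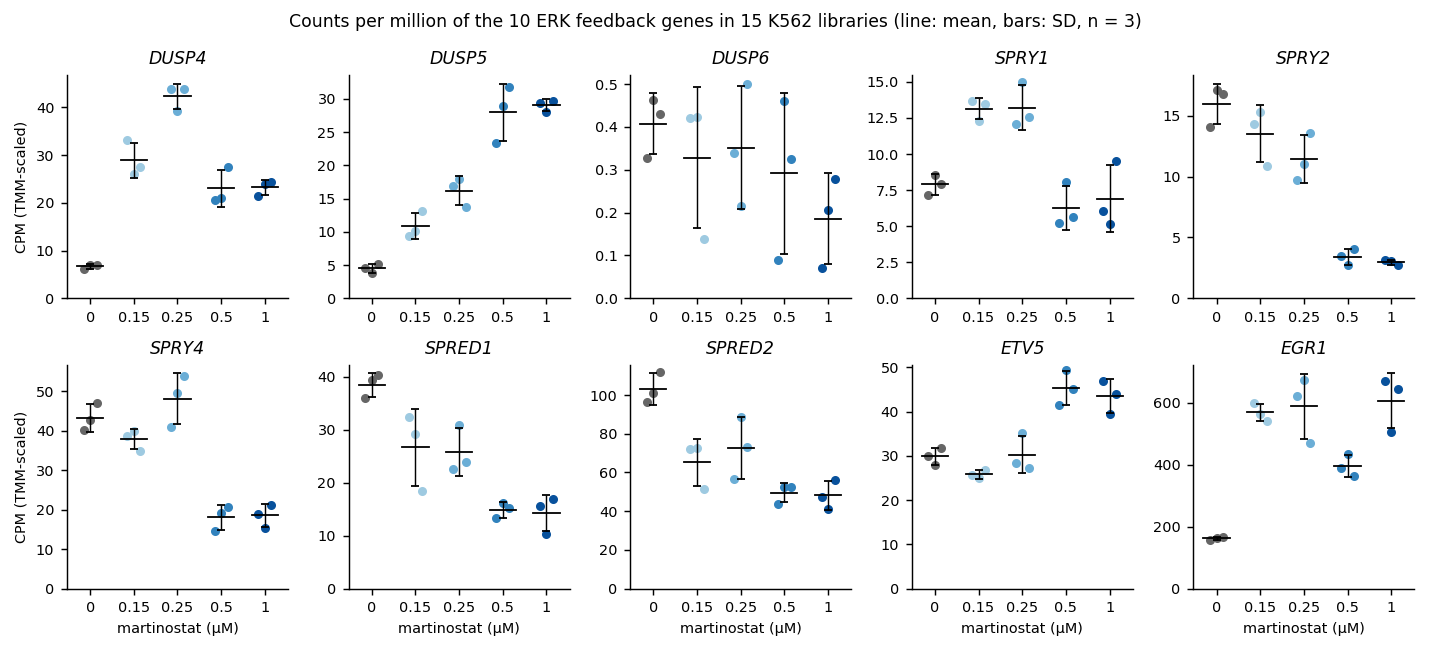
CPM (y axis, TMM-scaled, each panel with its own range from 0) of the 10 feedback genes by martinostat dose, a point per library, with the mean (line) and SD (bars) of 3 libraries. *DUSP4* peaks at 0.25 µM, *DUSP5* climbs to 0.5 µM, *SPRY2*, *SPRY4*, *SPRED1* and *SPRED2* are lowest at 0.5 and 1 µM, and *DUSP6* stays at or below 0.501 CPM throughout.

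The Sprouty genes, whose products restrain receptor signalling to RAS and RAF, did not move as a group. *SPRY1* (chr4:123396795-123403760, plus strand) stood at 7.16, 8.57 and 7.94 CPM in untreated libraries, 13.7, 12.3 and 13.5 CPM at 0.15 µM, and 12.1, 15.0 and 12.5 CPM at 0.25 µM. It was back at 5.21, 8.03 and 5.63 CPM at 0.5 µM and 6.03, 5.18 and 9.52 CPM at 1 µM. Both low doses lay above the untreated range, and both high doses overlapped with it. It was higher by 0.74 ± 0.22 on the log2 scale (SE, adjusted p = 0.00959) at 0.15 µM and by 0.74 ± 0.22 (0.00712) at 0.25 µM. At 0.5 and 1 µM the log2 fold changes were -0.33 ± 0.22 (0.205) and -0.19 ± 0.22 (0.465), with positive signs of 0.04 and 0.17 under library totals.

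*SPRY2* (chr13:80335976-80341126, minus strand) fell most of the 10 genes. It stood at 14.1, 17.1 and 16.8 CPM in untreated libraries, 14.3, 15.3 and 10.9 CPM at 0.15 µM, and 9.76, 11.0 and 13.6 CPM at 0.25 µM. At 0.5 µM it was at 3.44, 2.76 and 4.08 CPM and at 1 µM at 3.12, 3.04 and 2.72 CPM. The 2 high doses were far below all other libraries. The mean at 1 µM was 0.185 of that in untreated cells, a log2 fold change of -2.43 ± 0.21 (SE, adjusted p = 7.01e-09), after -2.21 ± 0.21 (2.25e-08) at 0.5 µM. The call at 0.25 µM (-0.48 ± 0.19, adjusted p = 0.0399) was kept in 13 of 26 alternative settings, and the value was 0.07 under library totals. It was lost without the second or the third untreated library, the third at 0.15 µM, or the first or the second at 0.25 µM, with values from -0.60 to -0.38 when a single library was left out.

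*SPRY4* (chr5:142310427-142326455, minus strand) was at 40.1, 42.7 and 47.0 CPM in untreated cells. It stood at 38.7, 40.0 and 35.0 CPM at 0.15 µM and 41.0, 49.5 and 53.9 CPM at 0.25 µM, with no call at either dose. At 0.5 µM its libraries held 14.6, 19.2 and 20.6 CPM and at 1 µM 18.9, 15.5 and 21.3 CPM, all below every other library. It fell by 1.25 ± 0.16 on the log2 scale (SE, adjusted p = 1.66e-06) at 0.5 µM and by 1.22 ± 0.16 (2.24e-06) at 1 µM. At 0.25 µM the log2 fold change was 0.15 ± 0.16 (0.414), and 5 of 26 alternative settings called the gene higher there.

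*SPRED1* and *SPRED2*, which encode adaptors that hold back RAS activation, both fell at 0.5 and 1 µM under each scaling. *SPRED1* (chr15:38252836-38357249, plus strand) went from 36.0, 39.3 and 40.3 CPM in untreated libraries to 32.4, 29.2 and 18.5 CPM at 0.15 µM and 22.5, 30.9 and 23.9 CPM at 0.25 µM. It reached 13.2, 16.2 and 15.2 CPM at 0.5 µM and 15.6, 10.4 and 16.8 CPM at 1 µM. Each treated library was below the untreated range. The log2 fold change at 1 µM was -1.43 ± 0.21 (SE, adjusted p = 7.13e-06), against -0.53 ± 0.20 (0.0375) at 0.15 µM and -0.58 ± 0.20 (0.0193) at 0.25 µM. The 0.15 µM call was lost in 9 of 26 alternative settings, among them leaving out any untreated library or the third library at 0.15 µM, where the value was as small as -0.33 under the single omissions. The 0.25 µM call was lost in 8 settings, among them leaving out the third untreated library or the first or the third at 0.25 µM, with values from -0.74 to -0.50 over the single omissions. Under library totals the log2 fold changes were -0.16 at 0.15 µM and -0.06 at 0.25 µM, and neither was called.

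*SPRED2* (chr2:65310851-65432637, minus strand) was the second most abundant member in untreated cells, at 96.5, 101 and 112 CPM. It stood at 71.9, 72.8 and 51.4 CPM at 0.15 µM, 56.4, 88.6 and 73.2 CPM at 0.25 µM, 43.8, 52.6 and 52.5 CPM at 0.5 µM, and 47.5, 41.1 and 55.9 CPM at 1 µM. No treated library reached the untreated range. In log2 terms it fell by 0.66 at 0.15 µM (SE 0.18, adjusted p = 0.00417) and by 0.50 at 0.25 µM (0.18, 0.0181). The falls at 0.5 and 1 µM were -1.06 (0.18, 3.57e-05) and -1.10 (0.18, 2.29e-05). The first 2 were not called under library totals, where they were -0.29 and 0.02. Leaving out the third untreated library or the first at 0.25 µM also ended the call at 0.25 µM, with values down to -0.35.

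**Figure D3:**
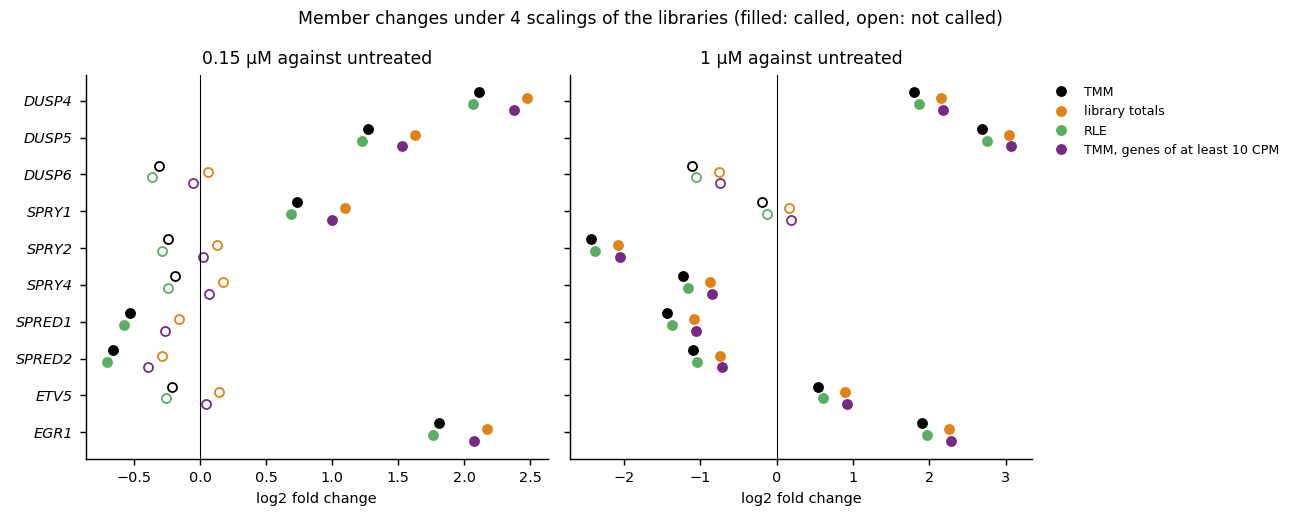
Log2 fold change of each feedback gene (x axis) at 0.15 and 1 µM against untreated cells under 4 ways of scaling the libraries, filled where called and open where not. At 1 µM the 8 called genes keep their sign and call under each scaling; at 0.15 µM *SPRY2*, *SPRY4* and *ETV5* change sign and *SPRED1* and *SPRED2* lose their calls under library totals and under TMM from genes of at least 10 CPM.

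*ETV5* (chr3:186046314-186110318, minus strand) encodes an ETS factor of the PEA3 group that ERK signalling induces, and 2.841% of its exon bases are shared with *DGKG* on the same strand. Untreated libraries held 29.9, 27.9 and 31.9 CPM, those at 0.15 µM 25.7, 24.9 and 26.8 CPM and those at 0.25 µM 28.4, 35.1 and 27.3 CPM. At 0.5 µM they held 41.5, 49.4 and 45.1 CPM and at 1 µM 47.0, 39.5 and 44 CPM. The libraries at 0.15 µM lay just below the untreated ones and those at 0.5 and 1 µM above all others. *ETV5* was higher by 0.60 ± 0.14 on the log2 scale (SE, adjusted p = 0.000736) at 0.5 µM and by 0.54 ± 0.14 (0.00178) at 1 µM, and its value at 0.15 µM was -0.21 ± 0.14 (0.202). At 0.25 µM the value was 0.02 ± 0.14 (0.919), and 5 of 26 alternative settings called it higher there.

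*EGR1* (chr5:138465479-138469303, plus strand), an immediate early zinc finger factor and the most abundant of the 10 transcripts, stood at 156, 164 and 166 CPM in untreated libraries. It was at 599, 564 and 542 CPM at 0.15 µM, 621, 672 and 470 CPM at 0.25 µM, 389, 433 and 362 CPM at 0.5 µM and 670, 504 and 645 CPM at 1 µM. The lowest treated library was above every untreated one, and the 0.5 µM group lay below the other 3 doses. The means were 3.51-fold, 3.63-fold, 2.44-fold and 3.74-fold those of untreated cells, with a log2 fold change of 1.81 ± 0.16 (SE, adjusted p = 3.59e-08) at 0.15 µM and 1.90 ± 0.16 (6.25e-09) at 1 µM.

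To ask between which doses the feedback genes change, each dose was compared with the next. From 0.15 to 0.25 µM 2 members were called higher and 0 lower, against 4.96% and 7.32% of all genes. These were *DUSP4* (log2 fold change 0.55 ± 0.15, SE, adjusted p = 0.0207) and *DUSP5* (0.57 ± 0.18, 0.04). The *DUSP4* call was lost in 5 of 26 alternative settings and the *DUSP5* call in 12, of which 4 and 9 left out a single library. These were the second or the third library at 0.15 µM and the first or the third at 0.25 µM for *DUSP4*, where values ran down to 0.48. For *DUSP5* they were the first untreated library, the first and the second at 0.15 µM and at 0.25 µM, the second at 0.5 µM, and any library at 1 µM, where values ran down to 0.47.

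The step from 0.25 to 0.5 µM moved 9 of the 10 genes, 2 higher and 7 lower, where 14.4% of all genes were called higher and 16% lower. *DUSP5* (0.79 ± 0.17, SE, adjusted p = 0.00171) and *ETV5* (0.58 ± 0.14, 0.00279) rose. *SPRY2* fell by 1.73 on the log2 scale (SE 0.21, adjusted p = 3.39e-06), *SPRY4* by 1.41 (0.16, 2.57e-06) and *SPRY1* by 1.07 (0.22, 0.00114). *DUSP4* fell by 0.87 (0.15, 0.00018), *SPRED1* by 0.79 (0.21, 0.0067), *EGR1* by 0.58 (0.16, 0.00933) and *SPRED2* by 0.55 (0.18, 0.0227). For all 9 the libraries of the 2 doses did not overlap. Without the second library at 0.25 µM *EGR1* and *SPRED2* were no longer called, and without the first at 0.5 µM *SPRED2* was not. Without the third replicates of both groups, all 9 calls held.

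Between 0.5 and 1 µM 0 members were called, as were 0% of all genes by edgeR, which had 372 of 23711 genes at an unadjusted p under 0.05. This is a smaller share than 0.05, the share for genes without any change, so the 0 calls do not show that the doses were alike. Without the third library at 0.5 µM the number was 1126, and without the third replicates at 0.25 and 0.5 µM 1640, with 0 called in both. DESeq2 also called 0 genes (445 unadjusted), and limma on log2(FPKM + 1) called 17 higher and 8 lower (1804 unadjusted). *EGR1* was higher at 1 than at 0.5 µM in 3 of 3 libraries, by 0.62 ± 0.16 on the log2 scale (SE, unadjusted p = 0.000969, adjusted p = 1). The other 9 log2 differences lay between -0.65 and 0.14.

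From 0.15 to 1 µM, with 21.5% of all genes called higher and 23.1% lower, 2 members were higher and 5 lower. *DUSP5* rose by 1.41 on the log2 scale (SE 0.18, adjusted p = 2.88e-06) and *ETV5* by 0.75 (0.14, 0.000173). *SPRY2* fell by 2.19, *SPRY4* by 1.03, *SPRY1* by 0.93, *SPRED1* by 0.90 and *SPRED2* by 0.44. The *SPRED2* difference had an adjusted p of 0.0492, its libraries overlapped, and the call was lost in 18 of 26 alternative settings, with values from -0.56 to -0.34 when a single library was left out (10 of the 15 omissions ended it: any untreated library, the first or second at 0.15 µM, the third at 0.25 µM, the first or second at 0.5 µM, or the first or second at 1 µM). The replicate number as a block ended it too (adjusted p = 0.0533). *DUSP4* (-0.31 ± 0.15, adjusted p = 0.0992) and *EGR1* (0.09 ± 0.16, 0.664) were not called between these doses.

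Levels of different genes were compared as CPM per kb of exon. In untreated cells *EGR1* (51.6 ± 1.78, SD, n = 3) and *SPRED2* (18.7 ± 1.46) led, followed by *SPRY4* (6.60), *ETV5* (5.18), *SPRY2* (4.97) and *SPRED1* (4.97), then *SPRY1* (1.99), *DUSP5* (1.78), *DUSP4* (0.919) and *DUSP6* (0.106). The libraries overlapped between *ETV5*, *SPRY2* and *SPRED1* and between *SPRY1* and *DUSP5*, and in no other neighbours of this order. At 1 µM *EGR1* stood at 193 ± 28.4 per kb and *DUSP5*, eighth before treatment, was next at 11.5 ± 0.343. *SPRED2* (8.75), *ETV5* (7.54), *DUSP4* (3.20), *SPRY4* (2.83), *SPRED1* (1.84), *SPRY1* (1.74), *SPRY2* (0.922) and *DUSP6* (0.0481) followed. Overlap there was between *SPRED2* and *ETV5*, *DUSP4* and *SPRY4*, and *SPRED1* and *SPRY1*.

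**Figure D4:**
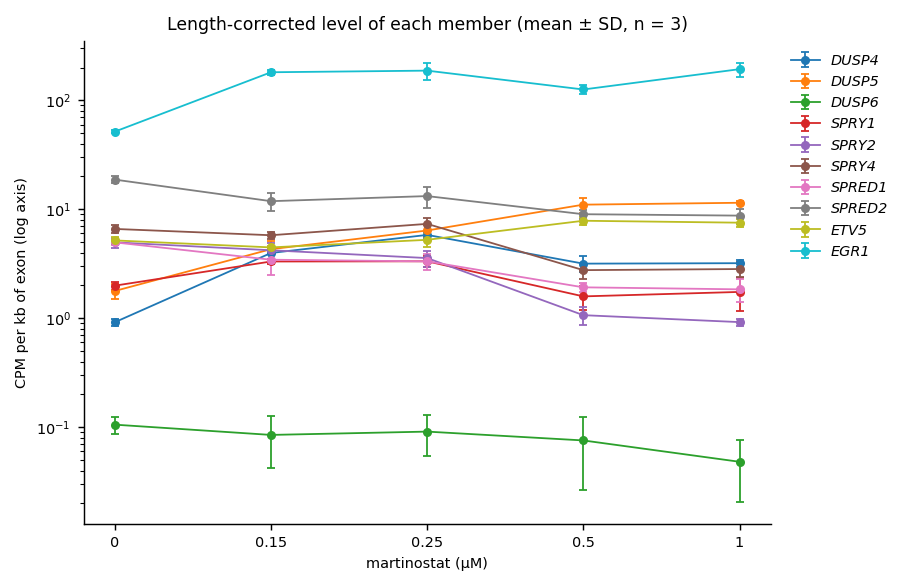
Mean level of each feedback gene in CPM per kb of exon (log y axis; bars are the SD of 3 libraries) by martinostat dose (x axis, in µM, not to scale). *DUSP5* and *DUSP4* climb from 1.78 and 0.919 in untreated cells past genes that fall, *SPRY2* drops to 0.922 at 1 µM, and *EGR1* is the highest and *DUSP6* the lowest at every dose.

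The rest of the pathway was read in 6 further lists. Over all tested genes 31.9% were called higher and 19.4% lower at 0.15 µM, and 38.8% and 27.5% at 1 µM. At 0.25 and 0.5 µM the shares were 37.4% and 24.8%, and 39.4% and 27.6%. No list was tested against these shares. Of 14 genes of the RAS-ERK cascade, 1 rose and 9 fell at 0.15 µM, 1 and 10 at 0.25 µM, 3 and 6 at 0.5 µM, and 3 and 7 at 1 µM. Among the 14, *KSR2* had 0 counts in untreated libraries and 270 at 1 µM. It passed the count filter only through treated libraries and could not be called lower. Under library totals the numbers of cascade genes that rose and fell were 2 and 2 at 0.15 µM and 4 and 4 at 1 µM. Lower calls then did not outnumber higher ones, but 10808 of all 23711 genes were higher and 4777 lower at 1 µM with this scaling. The cascade median at 1 µM was -0.37 beside 0.32 for all genes on the TMM scale and -0.02 beside 0.67 under library totals. A change of scaling shifts all genes nearly alike. The gap between the 2 medians is therefore almost fixed, and its presence on both scales is no separate evidence. *PEBP1*, an inhibitor of signalling through the cascade, fell from 460 ± 19.3 to 150 ± 5.51 CPM (SD, n = 3) at 1 µM. *MAPK3*, which encodes ERK1, rose from 54.0 ± 2.07 to 96.5 ± 13.4 CPM and *SHOC2*, a leucine-rich repeat scaffold of the pathway, from 47.4 ± 2.91 to 70.9 ± 6.19 CPM. The *MAPK3* call (log2 fold change 0.84, adjusted p = 0.0176) was lost without the first untreated library or the second at 1 µM, with values from 0.72 to 1.22 over all settings.

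Of 22 adaptors, exchange factors and GTPase-activating proteins (GAPs), 10 rose and 5 fell at 0.15 µM and 8 and 8 at 1 µM, against 10 and 4 at 1 µM under library totals. Among called genes that averaged 10 CPM or more in untreated cells or at 1 µM, the highest changes at 1 µM were those of the RAS GAP genes *RASAL1*, from 0.0903 CPM (7 counts over the 3 untreated libraries) to 15.9 ± 0.952 CPM, and *RASAL2*, from 1.49 to 15.6 CPM. *RASAL1* passed the count filter only through treated libraries, so it could hardly have been called lower. The lowest changes under the same minimum were those of *CRKL*, an adaptor that BCR-ABL phosphorylates, from 1211 ± 17.4 to 590 ± 52.8 CPM, and of the adaptor *GAB1*, from 27.0 to 16.04 CPM. The *GAB1* call did not hold under library totals, TMM from genes of at least 10 CPM or either limma setting.

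Of 13 tested receptor genes, 9 rose and 0 fell at 0.15 µM and 9 and 1 at 1 µM. *INSR*, the insulin receptor, went from 12.2 ± 1.76 to 79.3 ± 10.9 CPM at 1 µM and *FGFR1*, a fibroblast growth factor receptor, from 31.6 ± 1.91 to 141 ± 13.5 CPM. The erythropoietin receptor gene *EPOR* was the 1 lower gene, from 28.4 ± 1.12 to 18.0 ± 2.78 CPM, a call lost in the same 4 settings as that of *GAB1*. The median log2 fold change of the receptors at 1 µM was 1.19, beside 0.32 for all genes.

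Of 8 tested genes of the DUSP, Sprouty and SPRED families that are not members, 5 rose and 1 fell at 1 µM, and 5 and 2 at 0.15 µM. *DUSP1*, an immediate early phosphatase, stood at 25.2 ± 0.640 CPM in untreated cells, 13.0 ± 2.02 CPM at 0.15 µM (log2 fold change -0.95, adjusted p = 0.000101) and 119 ± 20.7 CPM at 1 µM (2.24, 1.13e-09). *DUSP8* rose from 1.85 to 11.6 CPM at 1 µM, while *DUSP7*, a cytoplasmic ERK phosphatase like DUSP6, fell from 61.5 ± 3.86 to 17.7 ± 0.474 CPM.

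Of 13 other ERK-responsive genes, 9 rose and 1 fell at 0.15 µM and 8 and 3 at 1 µM, with a median log2 fold change of 2.11 at 1 µM. *FOS*, like *EGR1* an immediate early gene, climbed from 4.10 ± 0.521 to 23.3 ± 4.76 CPM at 0.15 µM and 152 ± 17.0 CPM at 1 µM. *IER3* rose from 8.08 ± 1.03 to 169 ± 55.2 CPM, with 38.89% of its exon bases under genes of the opposite strand. *FOSL1*, a FOS relative, fell from 28.3 ± 2.44 to 1.43 ± 0.336 CPM, and *ETV4*, a PEA3 group factor like ETV5, from 67.2 ± 6.80 to 18.2 ± 1.08 CPM (log2 fold change -1.88, adjusted p = 6.17e-07). *ETV4* was lower and *ETV5* higher than in untreated cells at 1 µM.

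Of 15 tested ERK-regulated kinases and transcription regulators, 4 rose and 4 fell at 0.15 µM and 6 and 6 at 1 µM, against 8 and 3 at 1 µM under library totals. *RPS6KA2*, a ribosomal S6 kinase, rose from 0.13 CPM (10 counts over the 3 untreated libraries) to 12.1 ± 2.64 CPM, and *MKNK2*, a kinase of the translation factor eIF4E, from 159 ± 7.97 to 734 ± 73.4 CPM. With so few untreated counts *RPS6KA2* could hardly have been called lower. *RPS6KA4*, also known as MSK2, fell from 33.5 ± 0.0765 to 6.89 ± 0.709 CPM. *SRF*, which encodes the factor that binds CArG boxes, fell from 109 ± 2.51 to 43.8 ± 4.09 CPM (log2 fold change -1.31, adjusted p = 4.75e-08) while *EGR1*, with 2 such boxes in its promoter window, and *FOS* rose. A link between the level of *SRF* and these rises was not tested.

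**Figure D5:**
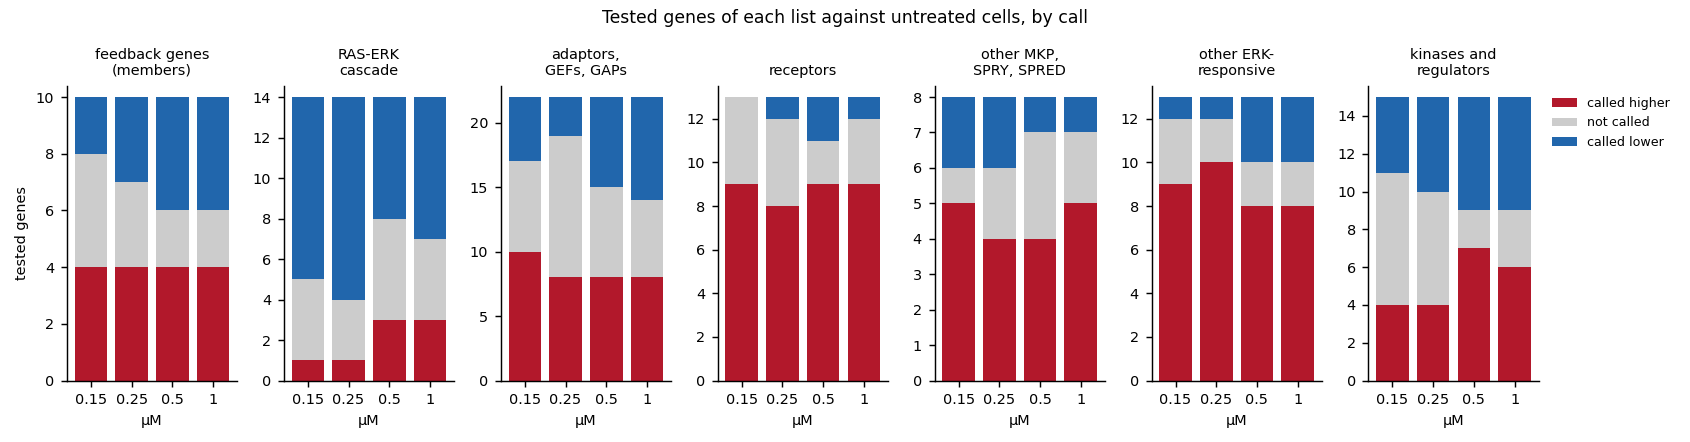
Number of tested genes (y axis, each panel with its own range) called higher (red), not called (grey) or called lower (blue) against untreated cells at each martinostat dose (x axis, in µM), for the 10 feedback genes and 6 further lists of the pathway, on the TMM scale. Receptors and other ERK-responsive genes hold mostly higher calls at every dose, with 9 of 13 and 8 of 13 at 1 µM, where 38.8% of all tested genes were called higher. In the RAS-ERK cascade lower calls outnumber higher ones at every dose, but not under library totals (4 rose and 4 fell at 1 µM). At 1 µM 3 rose and 7 fell with RLE size factors, another scaling for library composition. With TMM from genes of at least 10 CPM 4 rose and 5 fell there, and 5 and 5 at 0.5 µM.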

How the data were processed

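Gene expression was measured by mRNA sequencing in 15 K562 libraries, grouped by the labels. The authors trimmed reads (Trim Galore 0.6.10), aligned them to hg38 (HISAT2 2.2.1, SAMtools 1.21) and counted them per gene (featureCounts 1.5.3). The deposited counts are raw. The deposited FPKM were computed by the authors on the genomic span of each gene and the library total, and served only in alternatives. From the counts, edgeR 4.0.16 (R 4.3.3) kept 23711 genes (filterByExpr), scaled by TMM, and fitted 5 groups with robust quasi-likelihood tests and Benjamini-Hochberg adjustment (threshold 0.05). DESeq2 1.42.0 and limma 3.58.1 were alternatives. Exon lengths and positions came from a GENCODE annotation on hg38, and promoter windows from RefSeq (GRCh38.p14). Scripts were tested on simulated data.

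Named genes were all 10 members and, per further list, up to 2 with the highest and 2 with the lowest log2 fold change among genes called at 1 µM with a mean of at least 10 CPM untreated or at 1 µM. In the RAS-ERK cascade, 1 gene that this rule names is not reported here. The members and lists were chosen with earlier results of these data known. Replicates differed by more than counting noise (chi-square over degrees of freedom at least 5.85). Same-numbered libraries of the 0.25 and 0.5 µM groups deviated together (correlations 0.476, 0.5 and 0.754), so a blocked fit was added for this pair. Over all groups 8 of 30 such pairs passed 0.1. Unlike-numbered pairs passed it too, among them replicate 2 at 0.25 µM with replicate 1 at 0.5 µM (0.401). Replicate 1 at 0.25 µM with replicate 2 at 0.5 µM (0.204) did so as well. Between these groups, unlike-numbered pairs with a replicate 3 ran from -0.635 to -0.467. The labels do not say whether replicate numbers mark a shared culture, and this was not tested.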

Additional observations from a re-analysis of the deposited data

Results flagged for a closer look

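*ETV5* was lower than the untreated range in 3 of 3 libraries at 0.15 µM and higher in 3 of 3 libraries at 1 µM, and the 2 doses differed by 0.754 on the log2 scale (edgeR, adjusted p = 0.000173). The lower level at 0.15 µM was not called by itself (-0.21, adjusted p = 0.202), and its sign was positive under library totals. With 3 libraries per group, no test for single outlying libraries was made.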

How the results depend on the processing

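Of the 58 results on single members, 36 kept direction and call in each alternative run (27 in all: 25 planned, of which 15 left out 1 library each, and 2 chosen after seeing the data), among them the calls against untreated cells at 0.5 and 1 µM. Members called lower at 0.15 µM numbered 2, against 0 with library totals, with TMM from genes of at least 10 CPM and with both limma settings (log2(FPKM + 1) and log2(FPKM + 0.1)), 1 with at least 10 counts in every library, and 1 to 2 when a library was left out. At 0.25 µM the 3 lower members became 0 in the same 4 settings and with at least 10 counts, and 0 to 3 when a library was left out. Higher calls from 0.15 to 0.25 µM went from 2 to 1 with no filter, with only the compared libraries and with both limma settings, and to 0 to 2 when a library was left out. From 0.25 to 0.5 µM they went from 2 to 1, and lower calls from 0.15 to 1 µM from 5 to 3, with limma on log2(FPKM + 1). The 7 lower calls from 0.25 to 0.5 µM became 5 with only the compared libraries (without EGR1 and SPRED2) and with limma on log2(FPKM + 1) (without SPRED1 and SPRED2), and 6 with log2(FPKM + 0.1) (without SPRED2). The cause was not tested.

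Signs turned only in log2 fold changes that were not called under the alternative. With library totals, DUSP6, SPRY2, SPRY4 and ETV5 were at 0.058, 0.126, 0.171 and 0.145 at 0.15 µM, DUSP6, SPRY2 and SPRED2 at 0.362, 0.065 and 0.022 at 0.25 µM, and SPRY1 at 0.043 and 0.165 at 0.5 and 1 µM. With TMM from genes of at least 10 CPM, SPRY2, SPRY4 and ETV5 were at 0.021, 0.068 and 0.046 at 0.15 µM, DUSP6 at 0.242 at 0.25 µM, and SPRY1 at 0.078 and 0.19. With log2(FPKM + 1), DUSP6, SPRY2, SPRY4 and ETV5 were at 0.004, 0.081, 0.117 and 0.041 at 0.15 µM, DUSP6, SPRY2 and SPRED2 at 0.023, 0.030 and 0.005 at 0.25 µM, and SPRY1 at 0.015 and 0.068. With log2(FPKM + 0.1) they were 0.006, 0.104, 0.16 and 0.116, then DUSP6 and SPRY2 at 0.124 and 0.033, and SPRY1 at 0.02 and 0.108. SPRY1 at 1 µM was at 0.084 with at least 10 counts in every library, a filter that removed DUSP6. When 1 library was left out, ETV5 at 0.25 µM ran from -0.107 to 0.11, turning without the second untreated library (-0.033) or the second at 0.25 µM, and DUSP6 ran from -0.537 to 0.049 at 0.15 µM and from -0.526 to 0.046 at 0.25 µM.

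The replicate number as a block left 4 higher and 4 lower members at 1 µM and ended the SPRED2 call between 0.15 and 1 µM (adjusted p = 0.0533) and no other. In the paired fit of the 0.25 and 0.5 µM libraries alone, 2 members were higher and 7 lower, against 2 and 5 in the fit of these libraries without the block. Depth limits DUSP6, with 2 to 20 counts per library.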
